A study of Homo sapiens with 2 samples.

Results

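The genes described are 41 genes of DNA replication and nucleotide synthesis, taken by symbol from the gene list of the deposited matrices, where all 41 were found among 36601 genes. They were listed by gene name, with earlier results of these data known. The data are single-cell RNA counts from HT1080, an established human fibrosarcoma line labelled wildtype, grown as spheroids of 2000 cells, about 50 to a sample, in 500 µl of three-dimensional collagen for 72 h of invasion. The control culture was labelled Control, with no other antibody named. The 4B4 culture received 2 µg/ml of 4B4, a blocking antibody against β1 integrin, the chain that collagen and fibronectin receptors have in common. Each group is 1 library of 1 line, so no difference has a replicate check, no test was possible, and treatment and library cannot be told apart.

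Before a cell copies its genome, the origin recognition complex, CDC6 and CDT1 load the MCM2 to MCM7 helicase ring onto DNA, a step called licensing. CDC45 and the GINS complex, helped by MCM10, then turn the ring into an active helicase, and at the fork a primase, polymerases, the PCNA clamp with its RFC loader, the flap nuclease FEN1 and DNA ligase I make the new strands. Ribonucleotide reductase (RRM1 and RRM2), thymidylate synthase (TYMS), thymidine kinase (TK1) and dUTPase (DUT) supply the nucleotides, while CHAF1A, CHAF1B and UHRF1 restore chromatin behind the fork. Transcription of most of these genes is known to be driven in late G1 and S phase by E2F factors, whose family includes the activator E2F1 and the repressor E2F8.

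3402 control cells and 1385 4B4 cells were kept, with 127218114 and 116451080 unique molecular identifiers (UMIs, each counting 1 captured RNA molecule). The median kept cell held 32914 UMIs under control and 68556 under 4B4, and the libraries shared 2 barcodes. Levels are given as UMIs per 1000000 UMIs of the library (UPM), each with an exact 95% interval for counting error alone. Of 8 mesenchymal markers, 7 reached 5 UPM in either library, with summed levels of 4671 and 4476 UPM. Of 14 epithelial, leukocyte and endothelial markers, 3 reached it (CLDN4, CD68 and PECAM1), summing to 13.4, 28.5 and 32.6 UPM per list under control and 15.5, 40.8 and 47.7 UPM under 4B4. KRT5 was at 0 in both libraries. Their part in the results was not tested.

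The promoters of most of these genes hold words of an E2F site. Promoter sequence was not used to choose the genes. Most of them are known E2F targets, however, so the shares below describe the list and are no independent check. The promoters of the further replication genes were not counted beside them. RefSeq promoter windows (GRCh38.p14, 250 bases before to 50 after a transcription start) were at hand for 34 of the 41 genes, in 46 windows because some genes have several starts. No window was found for MCM4, MCM5, GINS4, POLD3, RPA2, ATAD2 and E2F8. The E2F word TTCCCGC, the word TTCGCGC, the word TTGGCGC and the word TTGCCGC were searched on both strands, where they may overlap. At least 1 of these E2F words was found in 32 of the 46 windows (69.6%). They were found in 12.97% of all 35116 promoter windows and in 19.3% of the 12966 windows of genes at 5 UPM or more in either library. By gene, 30 of 34 held a word in at least 1 window, against 25.6% of genes at that level. MCM10, CDC45, FEN1 and ORC6 held none, which says only that these letters are not in their windows. The median GC content was 66.7% in the windows of the replication genes and 65% in those of genes at 5 UPM or more. The CHR element, known from promoters of mitotic genes and searched as the word TTTGAA or the word TTCGAA, was in 3 of the 34 replication genes (8.82%), against 23 of 29 genes of a mitotic list (79.3%) and 15.8% of genes at 5 UPM or more. The word CCAAT was in 58.7% of replication windows, 78.1% of mitotic windows and 34.7% of windows of genes at 5 UPM or more. A match is a description of letters and was not tested as a binding site.

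The stretches below run from 100 bases before to 20 bases after the RefSeq start, 5′ to 3′ on the gene's own strand, with E2F words in capitals. They were picked to show the words in promoters of every step, beside FEN1, whose window held none. In ORC1 and MCM6, words on opposite strands overlap in 1 run of 10 capitals.
MCM6: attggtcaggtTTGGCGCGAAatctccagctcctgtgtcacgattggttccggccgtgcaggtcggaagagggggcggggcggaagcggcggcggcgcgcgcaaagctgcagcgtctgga
ORC1: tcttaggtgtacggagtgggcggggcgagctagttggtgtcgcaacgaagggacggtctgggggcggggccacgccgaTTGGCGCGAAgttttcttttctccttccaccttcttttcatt
CDT1: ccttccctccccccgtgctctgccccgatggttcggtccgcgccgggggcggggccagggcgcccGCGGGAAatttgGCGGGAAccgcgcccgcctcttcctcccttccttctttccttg
GINS2: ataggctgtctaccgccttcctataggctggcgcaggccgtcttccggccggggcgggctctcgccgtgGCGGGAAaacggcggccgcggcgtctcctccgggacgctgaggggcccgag
PCNA: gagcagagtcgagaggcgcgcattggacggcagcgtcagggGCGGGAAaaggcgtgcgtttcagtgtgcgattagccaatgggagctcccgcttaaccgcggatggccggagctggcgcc
PRIM1: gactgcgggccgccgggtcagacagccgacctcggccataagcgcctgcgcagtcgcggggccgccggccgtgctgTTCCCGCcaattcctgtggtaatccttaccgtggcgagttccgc
FEN1: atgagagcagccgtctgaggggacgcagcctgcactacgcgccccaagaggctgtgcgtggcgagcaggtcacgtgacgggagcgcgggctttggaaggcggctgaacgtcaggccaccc
TYMS: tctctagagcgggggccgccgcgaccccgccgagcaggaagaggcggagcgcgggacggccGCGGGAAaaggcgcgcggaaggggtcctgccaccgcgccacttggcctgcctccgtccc
CHAF1A: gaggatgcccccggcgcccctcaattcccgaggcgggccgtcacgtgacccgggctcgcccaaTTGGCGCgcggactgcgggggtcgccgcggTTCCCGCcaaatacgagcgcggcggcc
E2F1: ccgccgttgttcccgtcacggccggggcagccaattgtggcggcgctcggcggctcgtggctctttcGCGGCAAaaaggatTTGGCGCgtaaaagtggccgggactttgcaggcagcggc
On GRCh38.p14 the MCM6 stretch lies at chr2:135876424-135876543 (minus strand), ORC1 at chr1:52404404-52404523 (minus strand), CDT1 at chr16:88803689-88803808 (plus strand) and GINS2 at chr16:85688935-85689054 (minus strand). The PCNA stretch, at the outer of its 2 RefSeq starts, lies at chr20:5126603-5126722 (minus strand), PRIM1 at chr12:56752304-56752423 (minus strand) and FEN1 at chr11:61792811-61792930 (plus strand). TYMS lies at chr18:657553-657672 (plus strand), CHAF1A at chr19:4402540-4402659 (plus strand) and E2F1 at chr20:33686366-33686485 (minus strand).

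Transcripts of the 41 replication and nucleotide synthesis genes were a smaller part of the RNA in the 4B4 library. Summed over the 41 genes they took 1455 UPM under control and 867 UPM under 4B4, which gives a log2 ratio (4B4 over control) of -0.75 (-0.76 to -0.74). Each of the 41 genes had the lower level in the 4B4 library with a counting interval below 0. With summed counts these intervals are narrow, so a difference as small as that of DUT, at -0.11 (-0.13 to -0.088), is among them. No share of all genes with an interval below 0 is given. A gene was counted as lower or higher at a ratio of at least 1.5 with its interval on the same side, if it reached 5 UPM in either library. Of 37 replication genes at that floor 33 were lower and 0 higher, against 5.82% lower and 2.1% higher among all 11359 genes at the floor. Because the 41 were chosen with earlier results of these data known, this contrast describes the list and is no independent check. Of 33 further replication and licensing genes at the floor, 10 were lower. Of the 37, 14 were at least 2-fold lower, against 2.2% of all genes. The median log2 ratio was -0.92 for the 37 genes and -0.0089 for all genes. The 4 genes under the floor were ORC1, GINS3, GINS4 and E2F8.

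These differences are relative to each library's total. A 4B4 cell held on average 2.25 times the UMIs of a control cell, and without scaling the 41 genes summed to 54.4 UMIs per control cell and 72.9 per 4B4 cell. On that count 11 of the genes, among them TYMS and TK1, remained below their control level and 30 were above it. The part of this depth gap in the differences was not tested.

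**Figure D1:**
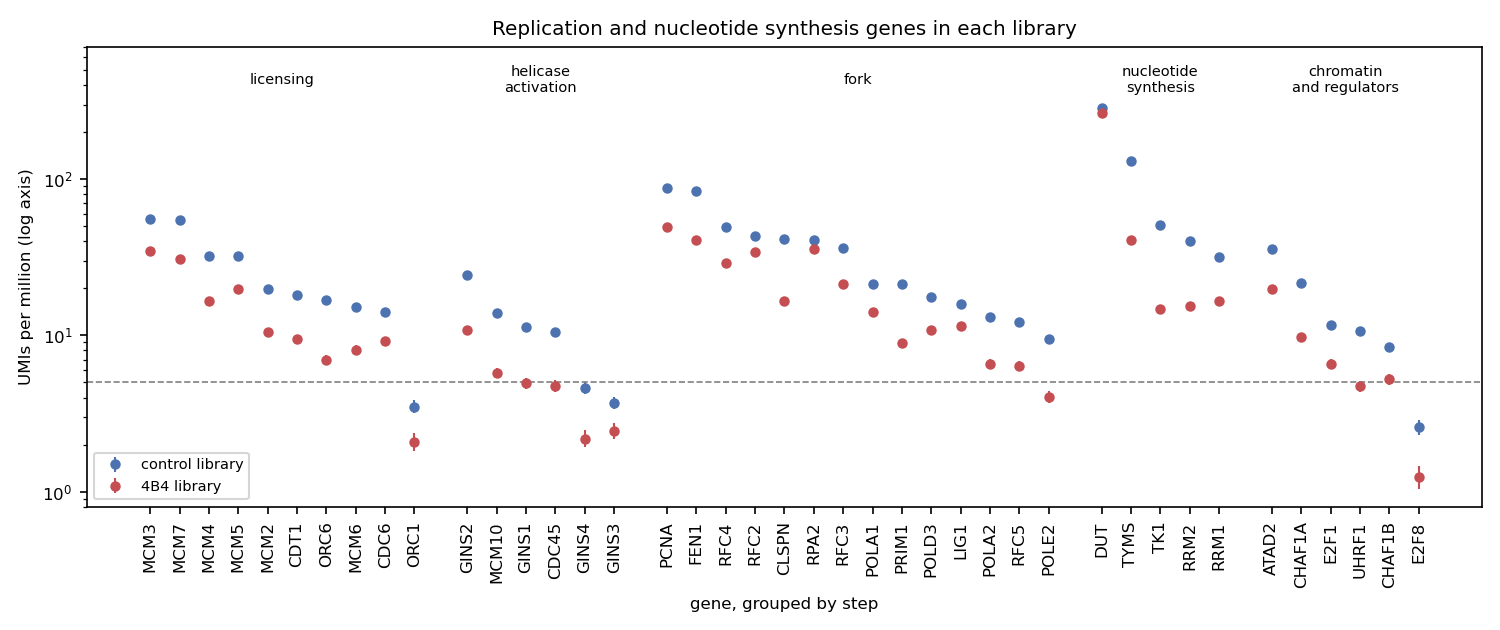
Level of each of the 41 genes in UPM on a log axis, grouped by step, in the control (blue) and 4B4 (red) library, with exact 95% counting intervals that are mostly smaller than the points. The dashed line is the floor of 5 UPM; the red point lies below the blue one for every gene, with DUT and RPA2 closest together and TK1 and TYMS far apart.

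Licensing genes were lower as a set, with all 9 of 9 genes at the floor called and a median log2 ratio of -0.90. The 6 helicase subunits MCM2 to MCM7, which form 1 ring, lay in a narrow range of log2 ratios from -0.97 to -0.69. MCM4 was at 32.4 UPM (31.4 to 33.4) under control and 16.5 UPM (15.8 to 17.3) under 4B4, a log2 ratio of -0.97 (-1.05 to -0.89). MCM3 was at 55.9 UPM (54.6 to 57.2) under control and 34.6 UPM (33.5 to 35.7) under 4B4, the smallest difference of the ring subunits at -0.69 (-0.75 to -0.64). MCM7 had 54.5 and 30.7 UPM, and MCM2, MCM5 and MCM6 had log2 ratios of -0.92, -0.70 and -0.90. ORC6, the smallest subunit of the origin recognition complex, stood lowest in this step at 16.9 UPM (16.2 to 17.6) under control and 6.95 UPM (6.48 to 7.44) under 4B4, a log2 ratio of -1.28 (-1.40 to -1.16). CDT1, which brings the ring to origins, had 18.1 and 9.42 UPM, a log2 ratio of -0.94 (-1.05 to -0.84). CDC6, the ATPase that works with CDT1, was nearest to 0 with -0.62 (-0.73 to -0.51), just past the 1.5-fold bound. ORC1, under the floor at 3.49 and 2.09 UPM, had a log2 ratio of -0.74 (-0.97 to -0.51).

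Among genes that activate the helicase, all 4 at the floor were at least 2-fold lower, with a median log2 ratio of -1.19. MCM10, which helps the activated helicase leave the origin, was at 13.97 UPM (13.3 to 14.6) under control and 5.76 UPM (5.33 to 6.22) under 4B4, a log2 ratio of -1.28 (-1.41 to -1.15). GINS2 was at 24.4 UPM (23.5 to 25.2) under control and 10.7 UPM (10.2 to 11.4) under 4B4, and GINS1, another subunit of the same 4-part complex, had a log2 ratio of -1.20 (-1.34 to -1.06) against -1.18 (-1.28 to -1.09) for GINS2. CDC45, the helicase cofactor, had 10.6 and 4.73 UPM, a log2 ratio of -1.16 (-1.31 to -1.02). Of the subunits under the floor, GINS4 had -1.08 (-1.30 to -0.86) and GINS3 had -0.59 (-0.80 to -0.37), so GINS3 was the member of this step nearest to 0. The median of the 6 ring subunits was -0.87, and no test of the difference between the steps was possible.

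Most fork genes were lower. Of 14 genes 11 were lower, 4 of them at least 2-fold, and the log2 ratios ran from -1.34 to -0.18 with a median of -0.80. CLSPN, which encodes the checkpoint adaptor claspin, was at 41.7 UPM (40.5 to 42.8) under control and 16.5 UPM (15.7 to 17.2) under 4B4, a log2 ratio of -1.34 (-1.41 to -1.26). PRIM1, the catalytic primase subunit, had 21.2 and 8.93 UPM and a log2 ratio of -1.25 (-1.35 to -1.15). POLE2, a subunit of the leading-strand polymerase, had -1.23 (-1.39 to -1.08). FEN1, which trims the flaps of Okazaki fragments, was at 84.5 UPM (82.9 to 86.1) under control and 40.6 UPM (39.4 to 41.7) under 4B4, a log2 ratio of -1.06 (-1.11 to -1.01). PCNA, the sliding clamp, was at 88.2 UPM (86.6 to 89.9) under control and 49.4 UPM (48.1 to 50.7) under 4B4, a log2 ratio of -0.84 (-0.88 to -0.79). The clamp loader subunits RFC3, RFC4 and RFC5 were lower, at -0.76, -0.76 and -0.92, while RFC2 had -0.34 (-0.40 to -0.28), short of 1.5-fold. The polymerase subunits POLA2, POLD3 and POLA1 had -0.995, -0.71 and -0.61. LIG1, the ligase that seals the fragments, had -0.46 (-0.56 to -0.36). RPA2, of the single-strand binding complex, was the fork gene nearest to 0, at 40.6 UPM (39.5 to 41.7) under control and 35.9 UPM (34.8 to 37.00) under 4B4, a log2 ratio of -0.18 (-0.24 to -0.12).

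Nucleotide synthesis genes held both the largest and the smallest differences. TK1, the salvage kinase for thymidine, was at 50.9 UPM (49.7 to 52.2) under control and 14.7 UPM (13.99 to 15.4) under 4B4, a log2 ratio of -1.79 (-1.87 to -1.72). TYMS, which makes thymidylate, was at 131 UPM (129 to 133) under control and 40.7 UPM (39.5 to 41.9) under 4B4, a log2 ratio of -1.69 (-1.73 to -1.64). RRM2, the S-phase subunit of ribonucleotide reductase, was at 39.99 UPM (38.9 to 41.1) under control and 15.4 UPM (14.7 to 16.2) under 4B4, a log2 ratio of -1.37 (-1.45 to -1.29), while its large partner subunit RRM1 had -0.93 (-1.01 to -0.85). DUT, the dUTPase that keeps uracil out of DNA, was at 285 UPM (282 to 288) under control and 264 UPM (261 to 267) under 4B4, a log2 ratio of -0.11 (-0.13 to -0.088). The median of the 5 was -1.37, and DUT alone made up 285 of the 538 UPM of the step in the control library, while the ratio of the summed step was -0.62.

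All 5 chromatin and regulator genes at the floor were lower, with a median log2 ratio of -0.86. UHRF1, which passes DNA methylation marks to the new strand, had 10.7 and 4.72 UPM, a log2 ratio of -1.18 (-1.33 to -1.04). CHAF1A, the large subunit of the histone chaperone CAF-1, was at 21.8 UPM (20.95 to 22.6) under control and 9.72 UPM (9.16 to 10.3) under 4B4, a log2 ratio of -1.16 (-1.26 to -1.06), and its partner subunit CHAF1B had -0.69 (-0.84 to -0.55), the nearest to 0 of this step. ATAD2, a bromodomain ATPase, had 35.8 and 19.8 UPM. E2F1 was at 11.6 UPM (11.01 to 12.2) under control and 6.55 UPM (6.10 to 7.03) under 4B4, a log2 ratio of -0.82 (-0.95 to -0.70), and E2F8, under the floor at 2.59 and 1.24 UPM, had -1.06 (-1.36 to -0.78).

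Positions come from GENCODE release 29 on GRCh38. TK1 (ENSG00000167900) spans chromosome 17 from 78174075 to 78187233, TYMS (ENSG00000176890) spans chromosome 18 from 657604 to 673578 and RRM2 (ENSG00000171848) spans chromosome 2 from 10120698 to 10131419. PCNA (ENSG00000132646) spans chromosome 20 from 5114953 to 5126626 and DUT (ENSG00000128951) spans chromosome 15 from 48331011 to 48343373. Values are per whole gene, so none is tied to an exon or intron. The gene body of TYMS overlaps ENOSF1 on the other strand, which had 59.5 and 49.9 UPM, and that of FEN1 overlaps TMEM258, at 479.6 and 748 UPM, which differed the other way. In all 16 of the 41 genes overlap a listed gene on the other strand, and the sources used here do not state whether the counting used strand. A gene on the same strand overlaps 5 of the 41, which strand cannot separate. These are PRIM1 (with NACA), FEN1 (with FADS2), CHAF1B (with MORC3), RFC3 and POLD3. 8 genes have pseudogenes named after them in that release, 8 for DUT and 3 each for PCNA, RPA2 and RRM2. None of these pseudogenes is in the deposited gene list, so reads shared with them make the levels of these genes less certain, RPA2 and RRM2 as well as DUT and PCNA.

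The next question was whether the lower levels came with fewer cells showing each transcript or with fewer UMIs in the cells that showed it. Because 4B4 cells were deeper, each cell was thinned to 17000 UMIs, leaving 3099 control and 1311 4B4 cells and leaving out 303 and 74 shallower ones. All 41 genes were then seen in a smaller share of 4B4 cells, and for 39 the intervals of both libraries did not overlap, the exceptions being RFC2 and RPA2. Without thinning, in the deeper 4B4 cells, 18 had the smaller share in the 4B4 library, with intervals apart for 10, and 17 genes had intervals apart in the other direction. No such count over all genes is given, so these counts describe the 41 genes alone. TK1 had a UMI in 37.7% of control cells (interval 35.9% to 39.4%) against 12.8% of 4B4 cells (interval 11.1% to 14.7%), and in 45.1% and 26.5% without thinning. TYMS had one in 52.2% of control cells (interval 50.4% to 53.98%) against 24.9% of 4B4 cells (interval 22.5% to 27.3%), and in 59.96% and 44.3% without thinning. For MCM10 the shares were 13.5% of control cells (interval 12.3% to 14.7%) against 5.42% of 4B4 cells (interval 4.25% to 6.78%), and 21.1% and 12.6% without thinning. RPA2 was seen in 45.7% of control cells (interval 43.96% to 47.5%) against 44.8% of 4B4 cells (interval 42.1% to 47.5%), with overlapping intervals, and in 67.2% and 81.5% without thinning. DUT was seen in 97.5% of control cells (interval 96.9% to 98.03%) against 95.7% of 4B4 cells (interval 94.4% to 96.7%), and in 98.5% and 96.4% without thinning, that is, in nearly every cell of both libraries. UMIs from free RNA can enter any droplet, and with 1 line in the culture there is no cell type lacking these genes from which to read that background.

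At this depth the share of detecting cells differed more than the UMIs per detecting cell for most of the genes. Across the 41 genes the control share was 1.02 to 2.94 times the 4B4 share, with a median of 1.61, while UMIs per detecting cell were 0.937 to 1.44 times as many, with a median of 1.07. The first ratio exceeded the second for 36 of the 41 genes, and not for PCNA, RFC2, RFC4, FEN1 and DUT. TYMS had 3.86 UMIs per detecting control cell and 2.67 per detecting 4B4 cell, the largest ratio of that kind. FEN1 had 2.62 and 1.85, and PCNA 2.29 and 1.76. For low genes such as E2F8, at 1.07 and 1.09, nearly every detecting cell holds a single UMI, so this ratio is held near 1 at this depth. The same limit acts, less strongly, on every gene with few UMIs per detecting cell. The contrast of share and level is therefore partly set by low counts.

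Counting genes per cell separated most cells, which showed few of the 41 genes, from a smaller number that showed many. The median cell had UMIs of 7 of the genes under control and 6 under 4B4, with upper quartiles of 17 and 8. At least 20 of the genes were seen in 19.3% of control cells (interval 17.9% to 20.7%) against 6.94% of 4B4 cells (interval 5.63% to 8.45%). From 10 to 19 were seen in 20.4% (18.96% to 21.8%) and 11.7% (9.98% to 13.5%), and under 5 in 20.8% (19.4% to 22.3%) and 31.6% (29.1% to 34.2%). These classes are ranges of a count and not cell types, and 138 control and 19 4B4 cells lay at 19 or 20 genes. Without thinning, at least 20 genes were seen in 30.8% and 26.9% of cells, with 4B4 cells deeper than control cells.

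**Figure D2:**
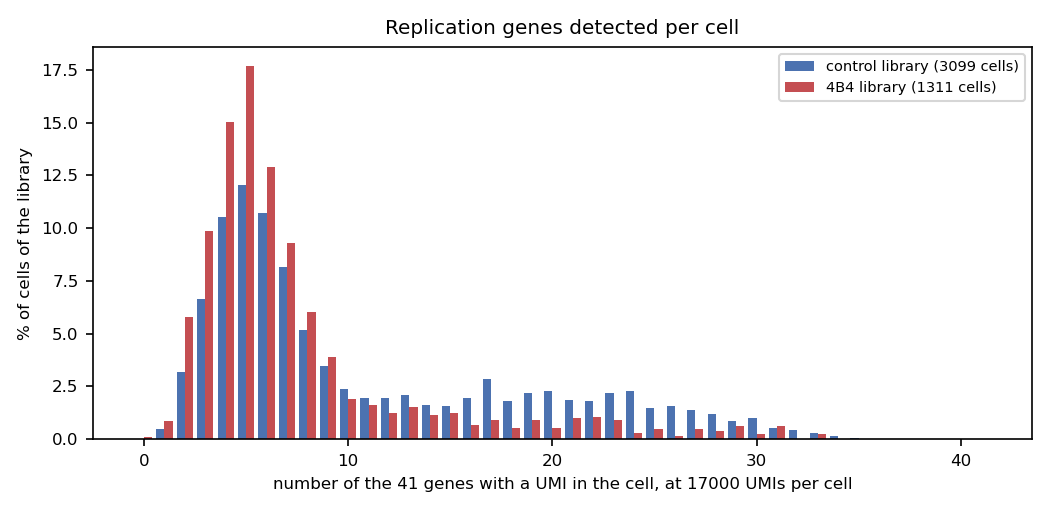
Number of the 41 genes with a UMI per cell, with each cell thinned to 17000 UMIs, as the percentage of cells of the control (blue) and 4B4 (red) library. Both libraries peak at 5 genes and have a long right side, which holds 19.3% of control and 6.94% of 4B4 cells at 20 genes or more.

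The genes were seen together in the same cells in both libraries. Of 820 pairs, 819 in the control and 811 in the 4B4 library were co-detected in more cells than the product of their shares gives, by a median factor of 1.74 and 2.04. These counts describe equal-depth cells of 1 library each, carry no test and are not set beside pairs of other genes. TYMS had a UMI in 85.8% of control cells with CLSPN and 38.9% of those without it, and in 62.6% and 18.5% of 4B4 cells. RRM2 was seen in 42.5% of control cells with TYMS and 5.27% of those without, and in 30.7% and 5.38% of 4B4 cells. CLSPN accompanied MCM10 in 79.7% of control and 78.9% of 4B4 cells with MCM10, against 20.4% and 10.8% of cells without it. Cells that held MCM10 thus held CLSPN about as often in either library, although such cells were rarer in the 4B4 library. MCM10 and E2F1 shared 179 control cells where 56.1 would follow from their shares, and 31 4B4 cells where 4.60 would.

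Across cells, the Pearson correlation of UMIs was highest for FEN1 with TYMS, at 0.64 over 3099 control cells and 0.65 over 1311 4B4 cells. CLSPN with ATAD2 had 0.53 and 0.62, and TYMS with RRM2 0.57 and 0.56. The median over all pairs was 0.27 and 0.24, with 0.28 and 0.24 for pairs within a step and 0.26 and 0.24 for pairs from different steps. The steps were not alike in this. Pairs within nucleotide synthesis had medians of 0.42 and 0.35, pairs within licensing 0.31 and 0.31, and pairs within helicase activation 0.15 and 0.19. Pairs of a nucleotide synthesis gene with a gene of another step had medians from 0.24 to 0.29 in the control and 0.23 to 0.27 in the 4B4 library. These values are descriptions: cells of a library share its preparation, and low counts hold the values of genes such as GINS3 near 0. Against the sum of the other 40 genes, FEN1 had 0.73 and 0.68, CLSPN 0.72 and 0.72 and TYMS 0.72 and 0.76. LIG1 had 0.30 and 0.25, and RPA2 0.32 and 0.23.

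**Figure D3:**
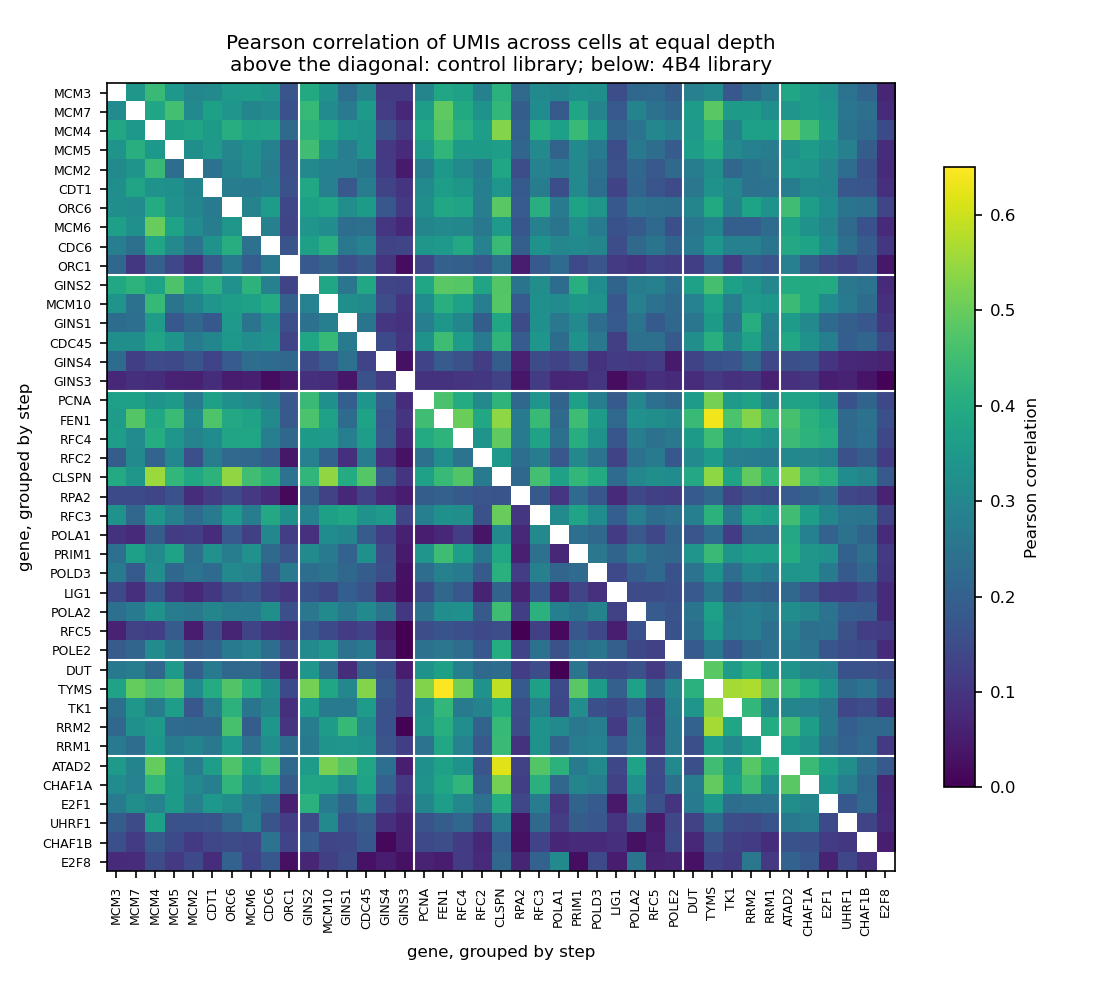
Pearson correlation of UMIs across equal-depth cells for each pair of genes, control library above and 4B4 library below the diagonal, with white lines between steps and values under 0 drawn as 0. TYMS, FEN1, CLSPN and ATAD2 give bright rows on both sides of the diagonal, with a maximum of 0.64 and 0.65 for FEN1 with TYMS.

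Cells were then set side by side in ranges of the helicase ring level, the summed MCM2 to MCM7 UMIs of the thinned cell. At 15 or more lay 99 control cells (3.19%, 2.60% to 3.88%) and 18 4B4 cells (1.37%, 0.816% to 2.16%), at 5 to 14 22.7% and 10.6%, and at 0 to 4 74.1% and 88.02%. In ring-rich cells the other 35 genes summed to 3928 UPM in the control and 3843 UPM under 4B4, a log2 ratio of -0.031 (-0.12 to 0.058). The median ring-rich cell showed 23 and 24 of the 35. Of 33 of these genes with at least 20 UMIs in either library, 2 (RFC2 and RFC5) were lower and 1 (POLE2) higher by 1.5-fold, against 2.89% lower and 4.03% higher among all genes counted so. In the bin of 5 to 14 the log2 ratio of the 35 genes was -0.30 (-0.34 to -0.25), and at 0 to 4 it was -0.39 (-0.42 to -0.35). At 0 to 4 the ring genes themselves had log2 ratios from -0.63 (MCM6) to -0.14 (MCM5), so ring level was not equal there. Cells with 30 or more UMIs of the mitotic list were 13.7% of control and 4.25% of 4B4 cells in that bin. They were 44.3% and 26.6% at 5 to 14, and 41.4% and 44.4% at 15 or more. E2F1 had the largest fold from the lowest to the highest ring bin among the 35 genes in the control library, from 2.66 to 62.4 UPM, and in the 4B4 library it went from 1.99 to 55.6 UPM. DUT had the smallest fold in the control library, from 241 to 550.2 UPM.

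Mitotic transcripts differed in the same direction as the replication genes. All 36 genes of the mitotic list, among them AURKB (-1.97), GTSE1 (-1.93), KIF20A (-1.91) and PBK (-1.88), were lower, with a median log2 ratio of -1.63. The list holds no replication gene of the 41, so its summed UMIs per thinned cell were used to order cells. Under 10 mitotic UMIs were found in 70.3% of control and 89.3% of 4B4 cells, 10 to 29 in 8.16% and 3.51%, 30 to 99 in 14.1% and 5.34%, and 100 or more in 7.45% and 1.83%. The 4B4 bins hold 1171, 46, 70 and 24 cells. Bins are ranges, so cells within them were not equal in mitotic level. In the lowest bin the list summed to 117 UPM under control and 84.5 UPM under 4B4. In the next bins it summed to 1054 and 1040 UPM, 3408 and 3176 UPM, and 9156 and 9400 UPM.

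The steps followed different courses along this order. Licensing genes summed to 144, 591, 540.2 and 314 UPM from the lowest to the highest bin of the control library and to 106, 512, 552 and 279 UPM in the 4B4 library. Nucleotide synthesis genes summed to 307, 847, 1097 and 1034 UPM in the control and 279, 709.7, 989 and 718 UPM in the 4B4 library, so they stayed high in the control cells richest in mitotic transcripts where licensing genes had come down. E2F1 went from 40.7 UPM in the control bin of 10 to 29 to 7.38 UPM in that of 100 or more. RRM2 went the other way, from 4.10 UPM under 10 to 55.1, 124 and 129 UPM. None of the 41 genes had its highest level in the lowest bin, and 25 control and 23 4B4 genes had it at 30 to 99. At 100 or more it lay for RRM1, RRM2 and E2F8 in the control library and for ORC6 and TK1 in the 4B4 library. For each of these genes the interval overlapped that of the bin of 30 to 99, so the bin of its highest level is uncertain. Control RRM2, for example, had 129 UPM (118 to 141) at 100 or more and 124 UPM (116 to 132) at 30 to 99.

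**Figure D4:**
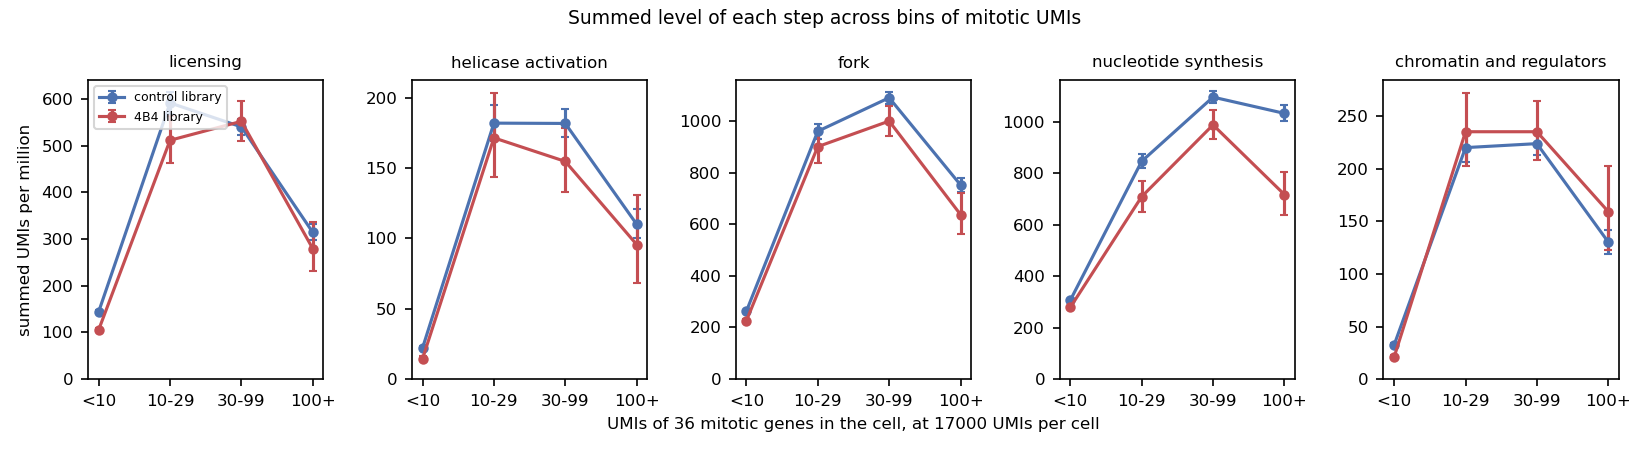
Summed UPM of each step in cells ordered by their UMIs of the 36 mitotic genes at 17000 UMIs per cell, for the control (blue) and 4B4 (red) library, with exact 95% counting intervals and axes that start at 0. Licensing is lower again at 100 or more, at 314 and 279 UPM, while nucleotide synthesis in the control library stays at 1034 UPM.

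Within each mitotic bin the log2 ratio of the sum was nearer to 0 than over all cells. Under 10 mitotic UMIs the 41 genes summed to 769 and 646 UPM, a log2 ratio of -0.25 (-0.28 to -0.22), and 11 of 41 genes with at least 20 UMIs in either library were lower by 1.5-fold, against 5.93% of all genes counted so. At 10 to 29 the log2 ratio was -0.15 (-0.22 to -0.079). There 2 of 40 genes (PRIM1 and TK1) were lower, against 2.92%, and 3 (POLA1, POLA2 and ATAD2) higher, against 11.4%. At 30 to 99 the sums were 3132 and 2930.2 UPM, a log2 ratio of -0.10 (-0.15 to -0.045), and 1 of 41 genes was lower, against 2.79%. That gene was TK1, at 129 and 80.7 UPM, a log2 ratio of -0.68 (-0.995 to -0.37). At 100 or more the sums were 2340.5 and 1889.7 UPM, a log2 ratio of -0.31 (-0.42 to -0.20). In that bin 6 of 40 genes (MCM5, PCNA, FEN1, TYMS, RRM1 and RRM2) were lower, against 2.68%, and summed nucleotide synthesis had -0.53 (-0.70 to -0.35). With control cells weighted to the 4B4 shares of the 4 bins, the control sum went from 1384 to 995 UPM, against 857 UPM in the 4B4 library, giving -0.22 in place of -0.69. By the ratio alone, with no counting interval, 2 of 37 genes at the floor (TYMS and TK1) were then 1.5-fold lower, against 2.65% of all genes. This weighting was chosen after the data had been seen, and what part of the difference the share of dividing cells accounts for was not tested.

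Single nucleotide synthesis genes parted in the cells under 10 mitotic UMIs. In this bin the mitotic genes were themselves lower in the 4B4 library, at 117 and 84.5 UPM, so mitotic level was not equal. TK1 was at 17.8 and 4.97 UPM, a log2 ratio of -1.84 (-2.16 to -1.53), as large a difference as over all cells. TYMS was at 38.5 and 18.2 UPM, a log2 ratio of -1.08 (-1.25 to -0.91). RRM2 was at 4.10 and 3.57 UPM, a log2 ratio of -0.20 (-0.63 to 0.21), where over all cells it had -1.37. RRM1 was at 11.6 and 12.4 UPM, a log2 ratio of 0.10 (-0.13 to 0.33), and DUT at 235 and 239.7 UPM, a log2 ratio of 0.03 (-0.021 to 0.081). The thymidylate genes TK1 and TYMS thus remained lower among cells poor in mitotic transcripts, while the intervals of the reductase subunits and DUT spanned 0. MCM10 at -1.08, ORC6 at -0.91 and CHAF1A at -0.90 were also lower there, and PCNA had -0.53. RPA2, at 0.14, was on the other side. At 100 or more mitotic UMIs, with 24 4B4 cells, TK1 was at 125 and 110.3 UPM, a log2 ratio of -0.18 (-0.65 to 0.27), and TYMS at 318 and 125 UPM, a log2 ratio of -1.35 (-1.78 to -0.94).

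**Figure D5:**
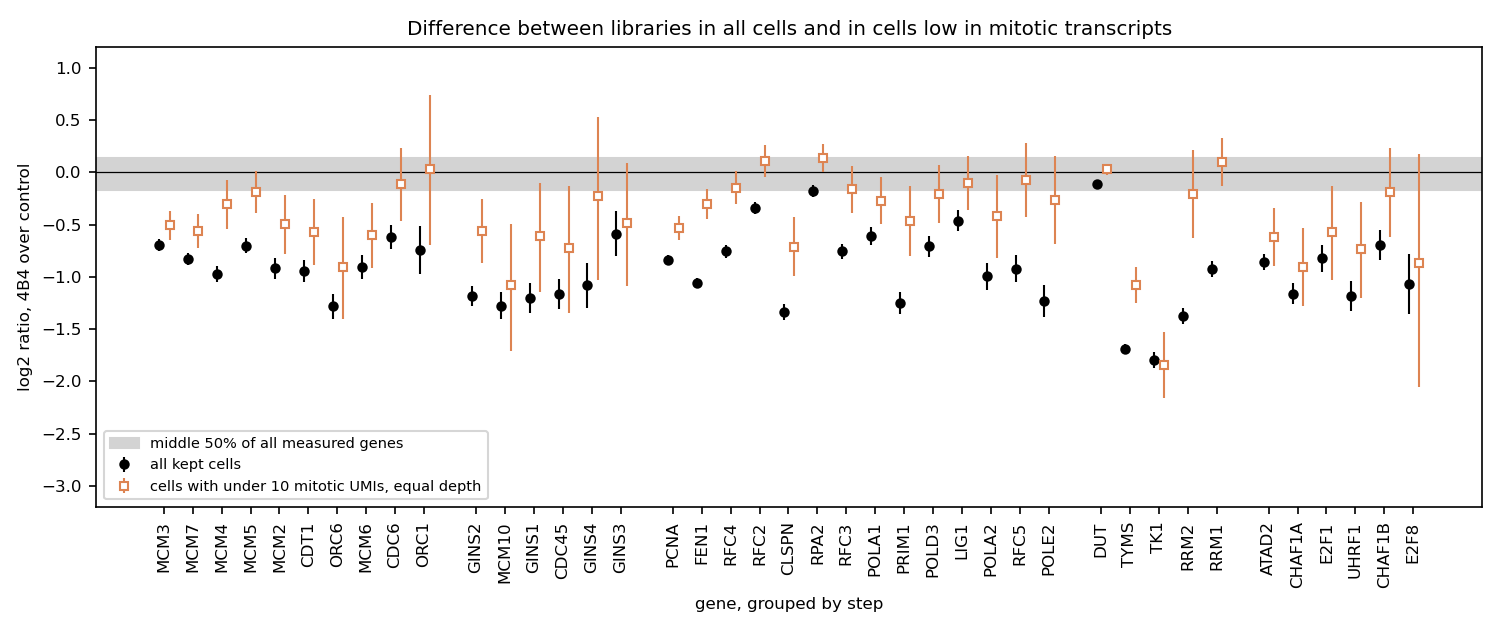
Log2 ratio (4B4 over control) of each gene over all kept cells (black circles) and over equal-depth cells with under 10 mitotic UMIs (orange squares), with exact 95% counting intervals; the grey band holds the middle 50% of all 11359 genes at the floor, from -0.17 to 0.14. Most squares lie above their circle, RRM2 moves from -1.37 to -0.20, and TK1 stays at the bottom.

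The 4B4 level was the lower one within every bin of cell depth from 20000 UMIs upward. The 41 genes summed to 1333 and 657 UPM in cells of 20000 to under 40000 UMIs, to 1581 and 877 UPM from there to under 60000, to 1653 and 892 UPM from there to under 100000 and to 1499 and 871 UPM in deeper cells. The log2 ratios of these bins were -1.02, -0.85, -0.89 and -0.78. Under 20000 UMIs the interval spanned 0, with sums of 882 and 944 UPM in 533 and 84 cells, a log2 ratio of 0.10 (-0.02 to 0.22). There 11 of 38 genes with at least 20 UMIs were higher and 3 (MCM3, TYMS and DUT) lower, against 31.9% and 10.3% of all genes counted so. The median depth in that bin was 16484 UMIs in the control and 6864 in the 4B4 library, so these cells were not alike in depth. These bins were added after the data had been seen.

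Other genes of the same pathways gave smaller medians, except for repair. Of 18 genes of replication-linked repair at the floor 15 were lower, with a median log2 ratio of -0.97, among them the PCNA-binding factor PCLAF (-1.61) and the exonuclease gene EXO1 (-1.18). Of 13 other chromatin genes of S phase 8 were lower, with a median of -0.63, among them HMGB2 (-1.39), the histone chaperone gene ASF1B (-1.34), CDCA7 (-1.17) and HELLS (-0.97). Of 33 further replication and licensing genes 10 were lower, with a median of -0.35, with DSCC1 (-1.06), RNASEH2A (-1.03), DNA2 (-0.997) and POLE (-0.98), the catalytic subunit of the leading-strand polymerase, in front. Of 29 further genes of nucleotide synthesis and salvage 7 were lower, with a median of -0.29, among them DCTPP1 (-0.70), DTYMK (-0.67) and PAICS (-0.64). Of 15 genes of E2F factors, pocket proteins and S-phase cyclins 3 were lower, namely CCNA2 (-1.84), FBXO5 (-1.53) and RBL1 (-0.85), with a median of -0.24. No gene of these 5 lists was higher by 1.5-fold, where 2.1% of all genes at the floor were.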

How the data were processed

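Single-cell RNA of 2 HT1080 cultures, 1 control and 1 with the 4B4 antibody, was grouped by the treatment labels. The deposited values are raw UMI counts per gene and barcode, which the authors made using Cell Ranger 7.1.0, per the file headers. The submitters' processing notes name the build GRCh38 and also Seurat 5.0.1. For the annotation release and strand setting of the counting, the sources used here give nothing. Barcodes were kept from 1000 genes upward and up to 20% mitochondrial UMIs, 3402 of 3642 and 1385 of 1759. Doublets were neither called nor removed.

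UMIs were summed over kept cells, divided by the library total and multiplied by 1000000, without a pseudocount. Exact Poisson intervals were used for sums, shares Clopper-Pearson intervals and ratios the interval of the conditional binomial share. With 1 library per group no test was made. Thinning drew 17000 UMIs per cell without replacement. The ratio script was checked on simulated counts. All 41 genes are reported. Genes with values are at least the 3 largest ratios of each step and the one nearest 0, and up to 4 of each other list, of which some are not reported here. The genes, steps and lists were chosen with earlier results of these data known. Alternatives were other cell filters, scalings, depths and cell subsets. Python 3.11.15, scipy 1.17.1 and edgeR 4.0.16 (TMM factors only) were used. Promoters came from RefSeq (GRCh38.p14).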

Additional observations from a re-analysis of the deposited data

How the results depend on the processing

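No setting that scales by a total turned the median of the replication genes. Against -0.92 it was -1.15 with a stricter cell filter (2000 genes or more, mitochondrial UMIs up to 10%), -0.80 thinned, -1.04 in cells of 20000 to 60000 UMIs, -0.72 with each cell weighing the same, -0.44 in unthinned cells with under 10 mitotic UMIs and -0.20 with control cells weighted to the 4B4 shares of the mitotic bins. Against 33 of 37 genes at the floor called lower, 9 of 28 were called in cells with under 10 mitotic UMIs (all genes 3.64%), 2 of 37 under the weighting (all genes 2.65%), 18 of 21 with a floor of 20 UPM (all genes 4.42%) and 14 of 37 at a ratio of at least 2 (all genes 2.20%). The other scaled settings, each with its own 37 to 39 genes at the floor, called 28 to 35 lower, and none of the 41 genes was called higher under any scaled setting. The weighting put CDC6 at 0.044, RFC3 at 0.034 and RRM1 at 0.013. It also put RPA2 at 0.12, RFC2 at 0.051 and DUT at 0.017, which were not called lower in the report. TYMS and TK1 were called under all 10 scaled settings. UMIs per cell with no scaling moved the median of all genes to 1.16, so the median of the replication genes was 0.25 there, 0.91 below it, with 1 lower (TK1) and 4 higher (DUT, RPA2, RFC2 and LIG1), where 0.247% of all genes were lower and 94.2% higher. The step medians were then 0.27 for licensing, 0.37 for the fork, 0.31 for chromatin and regulators, -0.023 for helicase activation and -0.20 for nucleotide synthesis. Of the genes called lower in the report, those above 0 on that count were MCM2 (0.25), MCM3 (0.48), MCM4 (0.20), MCM5 (0.47), MCM6 (0.27), MCM7 (0.34), CDC6 (0.55), CDT1 (0.23), CDC45 (0.0079), PCNA (0.33), RFC3 (0.41), RFC4 (0.41), RFC5 (0.25), POLA1 (0.56), POLA2 (0.17), POLD3 (0.46), FEN1 (0.11), RRM1 (0.24), CHAF1A (0.0065), CHAF1B (0.47), ATAD2 (0.31) and E2F1 (0.35). The median number of genes seen per cell in the control library was 11 without thinning, 5 at 10000 UMIs and 10 with the stricter filter, and in the 4B4 library 14 without thinning and 4 at 10000 UMIs. The share of cells with at least 20 genes was 30.8% and 26.9% without thinning, 8.18% and 2.87% at 10000 UMIs, and 26.2% in the control library with the stricter filter. The cause of these shifts was not tested, except that fewer UMIs per cell show fewer genes by construction. No paired analysis was possible because each group is 1 library.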

Other observations

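Barcodes left out by the cell filter also held replication transcripts. The 240 control barcodes left out had 585 UPM (541 to 630.5) of the 41 genes, against 1455 UPM in kept cells. The 374 4B4 barcodes left out had 341 UPM (321 to 362), against 867 UPM in kept cells.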
